A study of Mus musculus with 12 samples.

Results

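The genes of 10 lysosomal proteins that prepare peptides for MHC class II were examined in thymic epithelial cells (TEC). They are *Ctsl*, *Ctss*, *Ctsb*, *Ctsd*, *Ctsh*, *Ctsz*, *Ctsc*, *Lgmn*, *Prss16* and *Ifi30*, taken by symbol from 34549 genes with estimated counts. All 10 passed the filter on low counts in every comparison. RNA was sequenced from cortical TEC (cTEC) and medullary TEC (mTEC) of C57BL/6 wild-type (WT) mice and of Aβ0/0 mice, with 3 libraries in each of the 4 groups. Each library came from a pool of 5 to 10 mice aged 4 to 6 weeks. Aβ0/0 mice carry a disrupted *H2-Ab1*, which encodes the MHC class II β chain, and so lack these molecules on all cells, and no other allele or treatment was named for either genotype. Cells were sorted as EpCAM+CD45-Ly51+UEA1- (cTEC) or EpCAM+CD45-Ly51-UEA1+ (mTEC), after depletion of CD45+ cells. In every replicate fewer cells were sorted from Aβ0/0 than from WT mice in both subsets, and fewer cTEC than mTEC in both genotypes. Values are given as TPM, the abundance of a gene's transcripts relative to all transcripts of the library after correction for length, so that levels of different genes can be set side by side. Differences are log2 fold changes ± standard error from counts, with 3 libraries per group, and were called at a Benjamini-Hochberg adjusted p under 0.05.

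MHC class II molecules leave the endoplasmic reticulum with the invariant chain (Cd74) in their groove and travel to acidic late endosomes. There, lysosomal proteases cut the invariant chain down to the CLIP peptide and cut endocytosed or autophagocytosed proteins into the peptides that replace it. Cathepsin L is known for the late cut of the invariant chain in cTEC and cathepsin S for the same cut in mTEC, dendritic cells and B cells, and Prss16 (thymus-specific serine protease) is known as a protease of cTEC that shapes the peptides for positive selection of CD4+ T cells.

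Marker levels separated the sorted subsets. The summed level of 7 cTEC markers was 3895 to 9492 CPM (counts scaled to the library total) in the cTEC libraries and 396 to 806 CPM in the mTEC libraries, and that of 9 mTEC markers was 1519 to 2084 CPM in cTEC and 4183 to 5521 CPM in mTEC. *H2-Ab1* was at 9055 to 11966 TPM in the WT libraries and at 2469 to 3956 TPM in the Aβ0/0 libraries, so that transcripts of the disrupted gene were still counted. The total of estimated counts per library ranged from 21710319 to 36139815. WT cTEC replicate 3 stood apart from the other cTEC libraries. The transcript Ctsl-201 took 95.2% of the *Ctsl* TPM in it, against 53.0% to 79.6% in the other 5. Its *Ctsl* level was 2333 TPM, the lowest of the cTEC libraries. By CPM scaled with TMM, a factor that corrects the library total for composition, it was at 4080, against 4023 and 5487 in the other WT cTEC libraries, so that its place among them depended on the scale. Calls that changed without this library are named beside the result. WT cTEC replicate 1 had the highest sums of dendritic cell and macrophage (311 CPM), granulocyte (173 CPM) and erythroid (496 CPM) markers of the cTEC libraries.

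The cysteine endoprotease *Ctsl* (chromosome 13, 64359337 to 64370890, minus strand; GRCm38 for all positions) and *Prss16* (chromosome 13, 22002173 to 22009742, minus strand) were the highest of the 10 genes in cTEC. *Ctsl* reached 4634, 6014 and 2333 TPM in WT cTEC and 6131, 7459 and 5256 TPM in Aβ0/0 cTEC. It was at 686, 984 and 1126 TPM in WT mTEC and at 1212, 1466 and 1695 TPM in Aβ0/0 mTEC. Every cTEC library was above every mTEC library, but *Ctsl* was still the highest of the 10 genes in both mTEC groups. By its mean TPM *Ctsl* ranked 21 among all genes in WT cTEC (WT cTEC replicate 3 included) and 8 in Aβ0/0 cTEC, and 124 and 71 in the mTEC of those genotypes.

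*Prss16* reached 2372, 2913 and 1141 TPM in WT cTEC and 3190, 3949 and 2597 TPM in Aβ0/0 cTEC. In mTEC it was at 60.2, 71.2 and 75.7 TPM in WT and at 74.2, 56.9 and 146 TPM in Aβ0/0. The ranges of the subsets did not touch, and the 2 highest Aβ0/0 cTEC libraries exceeded every WT cTEC library.

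Cathepsin S (*Ctss*, chromosome 3, 95526786 to 95556403, plus strand) had the reverse pattern. It was at 16.5, 8.32 and 12.1 TPM in WT cTEC and at 7.77, 15.3 and 13.6 TPM in Aβ0/0 cTEC, which corresponds to 179 to 543 estimated counts per library. In mTEC it was at 236, 213 and 195 TPM in WT and at 108, 137 and 106 TPM in Aβ0/0. All mTEC libraries lay above all cTEC libraries, and within mTEC all WT libraries lay above all Aβ0/0 libraries.

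The promoter windows of these genes, from 250 bases before to 50 bases after the RefSeq start (GRCm38.p6), were searched for 3 motifs. The motif CACGTG is the core of the element bound by the lysosomal gene regulators TFEB and TFE3, TCACGTGA is a longer form that contains it, and GAAANNGAAA is a form of the interferon-stimulated response element bound by IRF factors. Both strands were searched. CACGTG was present in 7.15% of the 32851 promoter windows of the table, TCACGTGA in 0.974% and GAAANNGAAA in 3.44%. Windows were at hand for 7 members, and *Ctsb*, *Ctsh* and *Prss16* had no entry. CACGTG occurred in *Ctsl*, *Ctsd*, *Ifi30* and 1 of 2 windows of *Lgmn* (not shown), TCACGTGA in *Ctsd* and *Ifi30*, and GAAANNGAAA in *Ctss*. Capitals mark the motifs in the windows of *Ctsl* (chr13:64370471-64370770, minus strand), *Ctsd* (chr7:142387778-142388077, minus strand), *Ifi30* (chr8:70766614-70766913, minus strand) and *Ctss* (chr3:95526536-95526835, plus strand), each written 5′ to 3′.
Ctsl: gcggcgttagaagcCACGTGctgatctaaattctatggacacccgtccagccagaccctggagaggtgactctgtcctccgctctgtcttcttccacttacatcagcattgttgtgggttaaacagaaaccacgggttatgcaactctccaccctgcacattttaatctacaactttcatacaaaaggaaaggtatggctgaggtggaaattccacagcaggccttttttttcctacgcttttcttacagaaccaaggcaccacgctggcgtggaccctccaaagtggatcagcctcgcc
Ctsd: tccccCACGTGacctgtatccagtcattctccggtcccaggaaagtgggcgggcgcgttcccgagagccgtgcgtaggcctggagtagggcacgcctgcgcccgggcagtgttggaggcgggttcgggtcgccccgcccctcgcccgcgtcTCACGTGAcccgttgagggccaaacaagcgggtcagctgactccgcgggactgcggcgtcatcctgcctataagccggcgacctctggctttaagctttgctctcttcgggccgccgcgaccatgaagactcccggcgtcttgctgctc
Ifi30: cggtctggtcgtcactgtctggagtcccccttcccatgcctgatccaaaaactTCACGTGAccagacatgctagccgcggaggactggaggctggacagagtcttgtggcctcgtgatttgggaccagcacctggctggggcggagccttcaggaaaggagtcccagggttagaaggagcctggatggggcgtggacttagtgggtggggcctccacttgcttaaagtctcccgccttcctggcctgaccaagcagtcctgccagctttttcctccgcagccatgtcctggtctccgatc
Ctss: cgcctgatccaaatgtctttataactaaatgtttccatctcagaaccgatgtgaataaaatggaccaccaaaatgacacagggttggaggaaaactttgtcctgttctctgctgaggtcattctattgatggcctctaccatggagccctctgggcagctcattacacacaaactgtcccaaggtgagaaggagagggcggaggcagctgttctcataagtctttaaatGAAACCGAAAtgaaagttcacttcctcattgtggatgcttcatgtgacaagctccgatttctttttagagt
The windows of *Ctsz* and *Ctsc* held none of these motifs. A match is a run of letters only, and binding was not measured.

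The exopeptidases *Ctsh*, *Ctsz* and *Ctsc* trim peptides from their ends. *Ctsh*, an aminopeptidase (chromosome 9, 90054152 to 90076089, plus strand), was at 40.1, 48.0 and 15.5 TPM in WT cTEC and at 26.4, 25.8 and 10.3 TPM in Aβ0/0 cTEC, against 437, 362 and 283 TPM in WT mTEC and 279, 214 and 166 TPM in Aβ0/0 mTEC. *Ctsz*, a carboxypeptidase (chromosome 2, 174427493 to 174439039, minus strand), was at 119, 117 and 74.8 TPM in WT cTEC and at 113, 83.7 and 99.0 TPM in Aβ0/0 cTEC, against 399, 370 and 337 TPM in WT mTEC and 260, 228 and 129 TPM in Aβ0/0 mTEC. For both genes the order was WT mTEC, Aβ0/0 mTEC and then cTEC of either genotype, with no overlap until the cTEC groups, which overlapped each other. *Ctsc* (dipeptidyl peptidase I, chromosome 7, 88278085 to 88310888, plus strand), which also activates the serine proteases of granulocytes and cytotoxic cells, was lower, at 4.21 to 34.1 TPM in the cTEC libraries and 43.5 to 94.3 TPM in the mTEC libraries. By the ratio of the highest to the lowest library it varied most of the members within each cTEC group, from 4.21 to 34.1 TPM in WT cTEC and from 7.93 to 33.6 TPM in Aβ0/0 cTEC.

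*Ifi30* encodes GILT, a thiol reductase that opens disulfide bonds of proteins before they are cut, and is the only member that is not a protease (chromosome 8, 70762774 to 70766663, minus strand). It was at 89.8, 84.6 and 62.4 TPM in WT cTEC and at 91.6, 98.6 and 55.5 TPM in Aβ0/0 cTEC. In mTEC it was at 338, 254 and 224 TPM in WT and at 172, 187 and 71.2 TPM in Aβ0/0. WT mTEC stood above all other libraries, while Aβ0/0 mTEC replicate 3 lay among the cTEC libraries.

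The cysteine endoprotease *Ctsb* (chromosome 14, 63122462 to 63145923, plus strand), the aspartic endoprotease *Ctsd* (chromosome 7, 142375911 to 142388038, minus strand) and the asparaginyl endoprotease *Lgmn* (chromosome 12, 102394084 to 102439813, minus strand) had TPM ranges that overlapped between the subsets over both genotypes, although *Ctsd* was lower in every WT mTEC than in every WT cTEC library, and *Ctsb* in every Aβ0/0 mTEC than in every Aβ0/0 cTEC library. *Ctsb* lay between 129 and 389 TPM and *Ctsd* between 150 and 318 TPM over the 12 libraries, and the lowest *Ctsb* value was that of WT cTEC replicate 3. Of the *Ctsb* TPM, 37.5% (WT cTEC replicate 3) to 65.4% belonged to Ctsb-202, a transcript classed as a retained intron. The coding transcript Ctsb-201 was at 80.3 to 138 TPM. *Lgmn* was the lowest member in both mTEC groups, at 17.7 to 19.9 TPM in WT and 7.80 to 16.4 TPM in Aβ0/0, and was at 15.6 to 40.2 TPM in cTEC. Its WT mTEC libraries lay above its Aβ0/0 mTEC libraries. A stretch of 774 bases of the main coding transcript of *Ctsb* is shared with the opposite-strand gene *Fdft1*, whose counts over the whole gene reached 17.0% of those of *Ctsb*. No strand-specific counting was stated, and how the reads of the shared stretch were split was not measured. The *Ctsb* level is thus uncertain to an extent that is not known. No near-identical copy of the other members held more than 0.445% of a member's counts in a library.

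**Figure D1:**
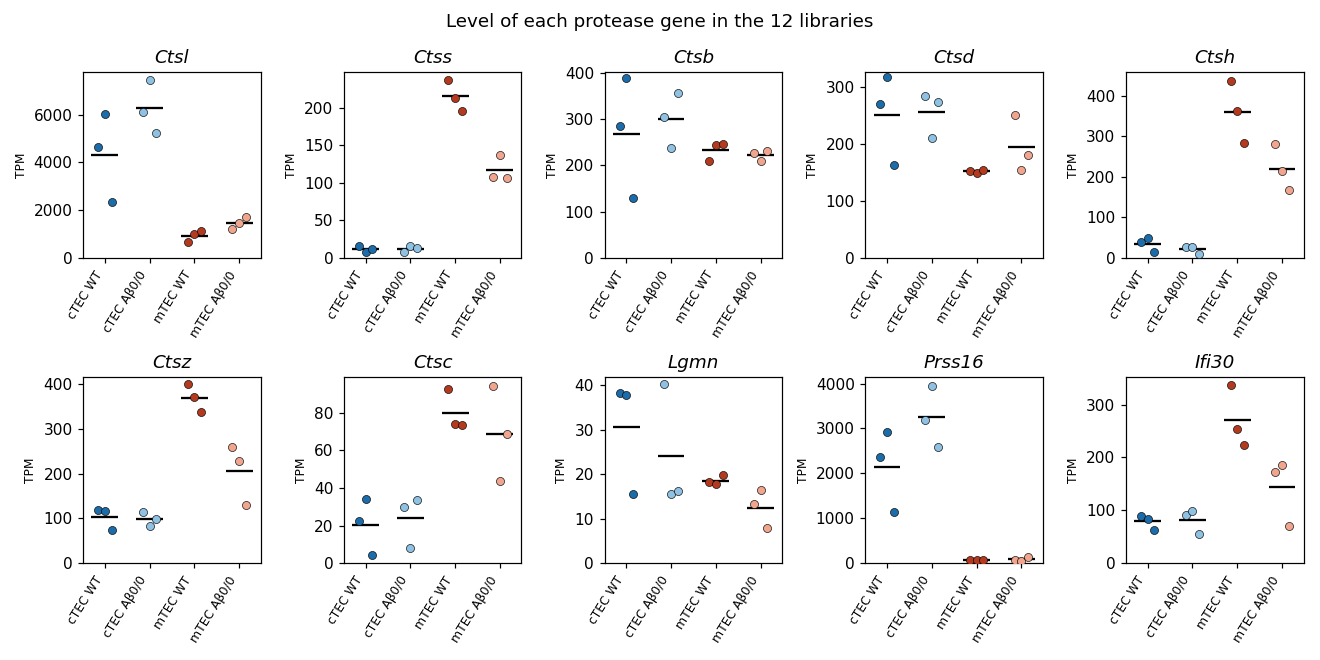
TPM of each of the 10 genes (vertical axis, linear, starting at 0, scaled per gene) in the 12 libraries, grouped on the horizontal axis as cTEC WT, cTEC Aβ0/0, mTEC WT and mTEC Aβ0/0. Points are libraries and bars are group means (n = 3). *Ctsl* and *Prss16* are high in cTEC, while *Ctss*, *Ctsh*, *Ctsz*, *Ctsc* and *Ifi30* have their highest means in mTEC.

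The first comparison was between the subsets. In WT mice, 7 of the 10 genes differed between mTEC and cTEC. *Prss16* (-4.93 ± 0.35, adjusted p = 0.000249) and *Ctsl* (-2.04 ± 0.33, adjusted p = 0.0043) were lower in mTEC, which are 2 of 10 members, while 8.81% of the 18680 genes tested were called lower. *Ctss* had the largest rise in mTEC (4.17 ± 0.34, adjusted p = 0.00035), followed by *Ctsh* (3.50 ± 0.34, adjusted p = 0.000605), *Ctsc* (2.02 ± 0.52, adjusted p = 0.0237), *Ctsz* (1.93 ± 0.20, adjusted p = 0.000718) and *Ifi30* (1.85 ± 0.20, adjusted p = 0.000922). These are 5 of 10 members, while 18.0% of all genes tested were called higher. The median log2 fold change was 0.83 over the members and 0.06 over all genes tested.

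*Ctsd* (-0.61 ± 0.21, adjusted p = 0.0719), *Lgmn* (-0.59 ± 0.28, adjusted p = 0.163) and *Ctsb* (-0.19 ± 0.23, adjusted p = 0.597) did not pass the threshold. Without WT cTEC replicate 3, *Ctsd* (-0.70) and *Lgmn* (-0.81) were called lower in mTEC as well, so that 9 of 10 members were called, while the calls over all genes rose from 5007 of 18680 to 7575 of 19896. The call of *Ctsc* was lost when WT cTEC replicate 1 or any of the 3 WT mTEC libraries was left out.

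In Aβ0/0 mice, 4 of the 10 genes passed the threshold, with the directions they had in WT. *Prss16* (-5.12 ± 0.50, adjusted p = 0.00363) and *Ctsl* (-1.79 ± 0.40, adjusted p = 0.0447) were lower in mTEC, against 2.15% of the 15693 genes tested. *Ctsh* (3.63 ± 0.45, adjusted p = 0.00648) and *Ctss* (3.45 ± 0.45, adjusted p = 0.00766) were higher, against 3.44% of them. With limma on rlog values *Prss16* alone stayed called, and the adjusted p was 0.0561 for *Ctss*, 0.0581 for *Ctsh* and 0.0913 for *Ctsl*. *Ctsz* (1.29 ± 0.30, adjusted p = 0.0515), *Ctsc* (1.79 ± 0.54, adjusted p = 0.111) and *Ifi30* (1.02 ± 0.48, adjusted p = 0.325) had positive values that did not pass. The values of *Ctsb* (-0.20 ± 0.21), *Ctsd* (-0.21 ± 0.20) and *Lgmn* (-0.76 ± 0.54) did not pass either. The call of *Ctsl* was lost whenever any of the 6 libraries was left out, at -2.02 to -1.39, and *Ctsz* was called without Aβ0/0 mTEC replicate 3 (1.52). Whether the step between subsets differed between genotypes is the interaction given further on.

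**Figure D2:**
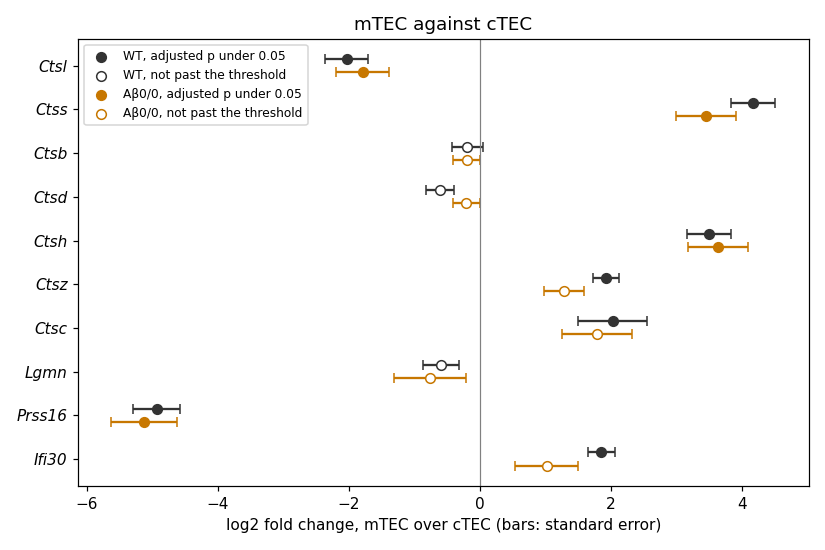
Log2 fold change of mTEC over cTEC (horizontal axis) for the 10 genes, in WT (black) and Aβ0/0 (orange) mice, with standard errors as bars and 3 libraries per group. Filled points passed an adjusted p of 0.05. Values run from about -5.12 for *Prss16* in Aβ0/0 to 4.17 for *Ctss* in WT.

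Transcripts of other cells differed between the subsets too. The summed level of 16 dendritic cell and macrophage markers was 735 to 748 CPM in WT mTEC, 126 to 707 CPM in Aβ0/0 mTEC, 71.3 to 311 CPM in WT cTEC and 10.7 to 63.8 CPM in Aβ0/0 cTEC, and *Lyz2* alone made up 48.3% to 95.9% of it. Without *Lyz2* the other 15 markers summed to 136 to 162 CPM in WT mTEC, 19.5 to 44.8 CPM in Aβ0/0 mTEC and 5.00 to 36.8 CPM in cTEC. Of the 16, *Itgax*, *Adgre1* and *Clec9a* had no counts in Aβ0/0 mTEC, and *Clec9a* had none in cTEC. The 6 granulocyte markers summed to 463 to 639 CPM in WT mTEC, 54.8 to 137 CPM in Aβ0/0 mTEC, 173 CPM in WT cTEC replicate 1 and 4.51 to 12.6 CPM in the other 5 cTEC libraries, and the 4 B cell markers to 6.18 to 42.8 CPM in mTEC and 0.802 to 7.27 CPM in cTEC. *Ctss*, *Ctsh*, *Ctsz*, *Ctsc* and *Ifi30* are known to be expressed in such cells, and the part of these cells in the mTEC levels was not tested. The CD45 depletion and the sort for CD45-EpCAM+ cells are meant to remove them. In bulk samples, fewer cells of a type and less RNA per cell cannot be told apart. The sums of thymocyte markers (11 genes, 305 to 973 CPM against 68.2 to 202 CPM) and of fibroblast markers (7 genes, 2378 to 3167 CPM against 201 to 416 CPM) were higher in the cTEC libraries. Their part in the cTEC levels was not tested. *Dcn* was the highest fibroblast marker, at 1569 to 2363 TPM in cTEC and 92.1 to 251 TPM in mTEC. In WT, *Dcn*, *Col1a2*, *Col3a1* and *Lum* were called lower in mTEC. The log2 fold changes of *Pdgfrb* (0.64 ± 0.49), *Col1a1* (0.36 ± 0.41) and *Pdgfra* (0.08 ± 0.97) were positive and did not pass.

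*Ctsl* and *Prss16* together made up 87.9% to 89.6% of the summed TPM of the 10 genes in WT cTEC and 90.2% to 94.3% in Aβ0/0 cTEC. *Ctsl* alone held 58.8% to 60.4% in WT cTEC and 60.0% to 61.6% in Aβ0/0 cTEC, WT cTEC replicate 3 included (59.0%). The low TPM of this library was shared by both genes and by the other members, since all but *Ctss* had their lowest WT cTEC value in it. Over the 6 cTEC libraries the share of *Ctsb* ran from 1.97% to 4.08%, that of *Lgmn* from 0.129% to 0.485%, that of *Ctsc* from 0.0655% to 0.386% and that of *Ctss* from 0.0761% to 0.307%. In mTEC the pair fell to 28.4% to 44.0% in WT and 47.8% to 65.7% in Aβ0/0. The next largest shares in WT mTEC were *Ctsz* (13.7% ± 1.43 (SD, n = 3)), *Ctsh* (13.4% ± 3.14), *Ifi30* (10.1% ± 2.45), *Ctsb* (8.64% ± 0.56) and *Ctss* (7.97% ± 0.93). In Aβ0/0 mTEC these shares were 7.57% ± 2.63, 8.07% ± 2.23, 5.27% ± 2.38, 8.13% ± 0.35 and 4.29% ± 0.68. All transcripts of a gene count in the shares, also those not classed as coding. In WT mTEC Ctsh-202, classed as nonsense-mediated decay, was at 230, 181 and 143 TPM. The main coding transcripts Ctsh-201 (137, 152 and 121 TPM) and Ctsb-201 (83, 86 and 89 TPM) lay under *Ctss* (236, 213 and 195 TPM) in each library. The order of these shares thus rests partly on transcripts not classed as coding. The *Ctsl* share was 26.1%, 35.9% and 41.2% in WT mTEC and 45.0%, 54.0% and 60.5% in Aβ0/0 mTEC, without overlap.

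**Figure D3:**
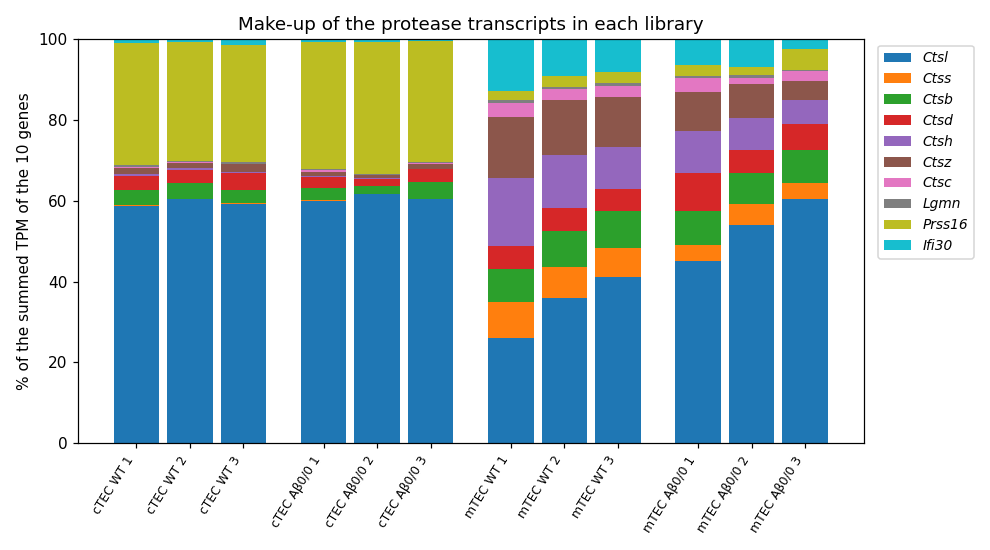
Share of each of the 10 genes in their summed TPM (vertical axis, %) in each of the 12 libraries. *Ctsl* and *Prss16* fill most of every cTEC bar, and the *Ctsl* share of the mTEC bars runs from 26.1% to 41.2% in WT and from 45.0% to 60.5% in Aβ0/0.

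The summed TPM of the 10 genes was 7887, 9963 and 3951 in WT cTEC and 10219, 12102 and 8711 in Aβ0/0 cTEC. In mTEC it was 2630, 2739 and 2734 in WT and 2690, 2712 and 2801 in Aβ0/0, a spread much smaller than in cTEC. The sum was lower in mTEC by 1.62 on the log2 scale (two-sided exact permutation test within genotypes, p = 0.005, the smallest of 400 arrangements), a ratio of cTEC to mTEC of 3.07, and all 6 mTEC libraries lay under all cTEC libraries. It was lower by 1.81 without WT cTEC replicate 3. *Ctsl* and *Prss16* held most of the sum in cTEC, so that the difference is mainly theirs, and 5 other members were called higher in WT mTEC. Between genotypes the log2 difference of WT minus Aβ0/0 was -0.31 (exact permutation test within subsets, p = 0.135). It was -0.45 (exact p = 0.03) without WT cTEC replicate 2 and -0.11 (exact p = 0.33) without WT cTEC replicate 3.

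The ratio of *Ctsl* to *Ctss* compares the 2 enzymes of the late cut of the invariant chain within a library, so that scaling between libraries drops out. It was 281, 723 and 192 in WT cTEC and 789, 487 and 387 in Aβ0/0 cTEC. In mTEC it was 2.90, 4.62 and 5.76 in WT and 11.3, 10.7 and 16.0 in Aβ0/0. The ratio was 58.3 times higher in cTEC than in mTEC (log2 difference of mTEC minus cTEC -5.86, two-sided exact permutation test within genotypes, p = 0.005, the smallest of 400 arrangements), with *Ctsl* above *Ctss* in all 12 libraries. Taken within each pool of mice, the same difference had p = 0.03125 in an exact sign-flip permutation test over 6 pools, the smallest it can give. The genotypes did not overlap in mTEC, where the ratio was 2.92 times higher in Aβ0/0 (exact permutation test, p = 0.1, the smallest that 3 against 3 libraries can give). In cTEC they overlapped (1.56 times higher in Aβ0/0, exact permutation test, p = 0.4). The comparison of the ratio between genotypes was added after its values were seen.

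**Figure D4:**
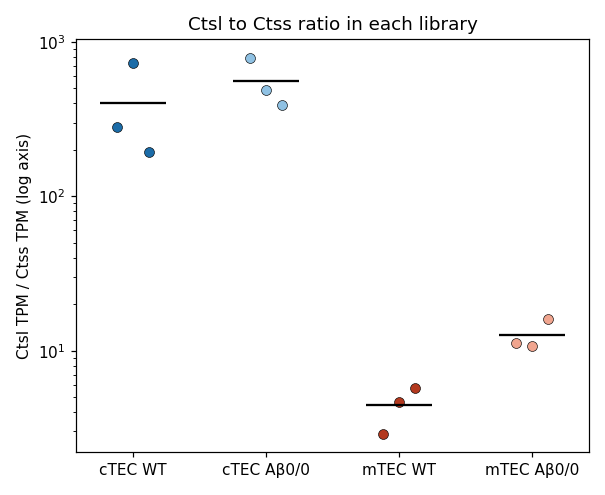
Ratio of *Ctsl* TPM to *Ctss* TPM (vertical axis, log scale) in each library (points) of the 4 groups, with the group mean as a bar (n = 3). The cTEC libraries lie between 192 and 789, the Aβ0/0 mTEC libraries between 10.7 and 16.0 and the WT mTEC libraries between 2.90 and 5.76.

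The second question was whether the loss of MHC class II went with a change of these genes within a subset. In mTEC none of the 10 passed the threshold in edgeR, while 5.67% of the 18648 genes tested did, a count that ran from 11 to 2470 genes under other filters and tools. The count over all genes was 0 with the replicate block and without any 1 of the WT mTEC libraries. At an unadjusted p under 0.05 edgeR counted 5 members, *Ctss*, *Ctsz*, *Ctsh*, *Ctsd* and *Ctsl*, against 15.4% of the genes tested. This count was 1, 1 and 2 without WT mTEC replicate 1, 2 and 3, and 4, 6 and 0 without Aβ0/0 mTEC replicate 1, 2 and 3. It was 6 with the replicate block. DESeq2 and limma on the rlog values also called 0 members at an adjusted p under 0.05. The log2 fold changes of WT over Aβ0/0 were 0.73 ± 0.24 for *Ctss* (adjusted p = 0.182), 0.72 ± 0.27 for *Ctsz* (adjusted p = 0.263), 0.58 ± 0.23 for *Ctsh* (adjusted p = 0.292) and 0.76 ± 0.39 for *Ifi30* (adjusted p = 0.44). Those of *Ctsl* (-0.87 ± 0.36, adjusted p = 0.312), *Ctsd* (-0.44 ± 0.17, adjusted p = 0.254) and *Prss16* (-0.49 ± 0.40, adjusted p = 0.678) were negative. *Lgmn* (0.54 ± 0.39), *Ctsc* (0.06 ± 0.19) and *Ctsb* (-0.08 ± 0.18) had adjusted p of 0.628 to 0.942.

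By TPM, the 3 WT mTEC libraries lay above the 3 Aβ0/0 libraries for *Ctss*, *Ctsh*, *Ctsz*, *Ifi30* and *Lgmn*, 5 of 10 members against 19.4% of the genes tested, and below them for *Ctsl*, 1 of 10 against 6.33%. The overlap depended on the scale. By CPM scaled with TMM, *Ctss*, *Ctsh* and *Ctsz* were still above, against 18.1% of the genes tested, and *Ctsd* was below, against 8.52%, while *Ctsl*, *Ifi30* and *Lgmn* overlapped. The WT mTEC libraries also held more *Aire* (626, 275 and 243 TPM against 111, 56.0 and 65.2 TPM), the regulator of mature mTEC, and more of the granulocyte, dendritic cell and macrophage markers given above, and the part of either in the values was not tested.

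In cTEC none of the 10 passed the threshold in edgeR, where 0.0194% of the 15435 genes tested did, and DESeq2 and limma also called 0. None had an unadjusted p under 0.05 in edgeR, against 2.14% of the genes tested. The largest log2 fold changes of WT over Aβ0/0 were 0.76 ± 0.50 for *Ctsh*, -0.63 ± 0.35 for *Prss16* and -0.57 ± 0.36 for *Ctsl*, and every adjusted p was 1. Without WT cTEC replicate 3 *Prss16* was at -0.46 and *Ctsl* at -0.54. *Lgmn* was at 0.42 ± 0.42, *Ctsz* at 0.13 ± 0.24, *Ctss* at 0.07 ± 0.61, *Ctsd* at 0.01 ± 0.25, *Ifi30* at -0.02 ± 0.36, *Ctsb* at -0.04 ± 0.25 and *Ctsc* at -0.14 ± 0.67. The TPM of the genotypes overlapped for all 10 genes, while 3.46% of the genes tested were above in all WT cTEC libraries and 3.47% below. The standard errors of *Ctss*, *Ctsc* and *Ctsh* were about 0.5 or more. Even the disrupted *H2-Ab1* did not pass in cTEC, at 9055 to 9640 TPM in WT and 3153 to 3956 TPM in Aβ0/0. Its change was several times its standard error, so that changes of such a size could go uncalled for any of the 10 genes.

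The difference of the genotype effect between the subsets, fitted on all 12 libraries, passed the threshold for none of the members in edgeR, and for 0.0103% of the 19474 genes tested. No member had an unadjusted p under 0.05 in edgeR, against 6.95% of the genes tested. In DESeq2 1 member had, and in limma 1, and neither of these tools called a member at the adjusted threshold. The largest values, mTEC minus cTEC, were 0.82 ± 0.53 for *Ifi30* (adjusted p = 0.867), 0.71 ± 0.54 for *Ctss* (adjusted p = 0.909) and 0.63 ± 0.34 for *Ctsz* (adjusted p = 0.784). The other 7 lay between -0.41 (*Ctsd*) and 0.23 (*Ctsc*). By its form this term is also the difference of the step between subsets in WT and in Aβ0/0, so that the calls of *Ctsz*, *Ctsc* and *Ifi30* in WT but not in Aβ0/0 were not shown to differ.

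**Figure D5:**
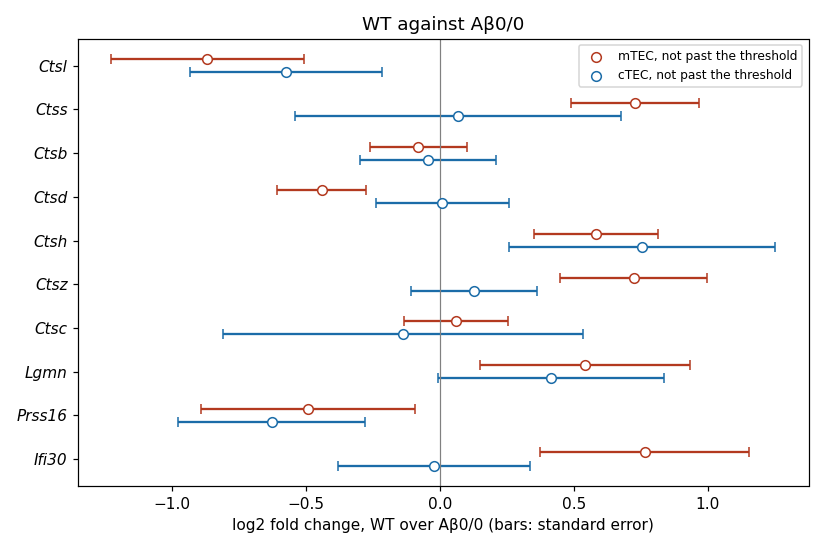
Log2 fold change of WT over Aβ0/0 (horizontal axis) for the 10 genes in mTEC (red) and cTEC (blue), with standard errors as bars and 3 libraries per group. Open points did not pass an adjusted p of 0.05, which is all of them, and the values lie between -0.87 for *Ctsl* and 0.76 for *Ifi30*, both in mTEC.

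Other genes of the lysosome and of class II loading were taken from 5 lists drawn up by known function. Their counts stand beside 18.0% of all genes tested called higher and 8.81% called lower in WT mTEC than in WT cTEC, and 3.44% and 2.15% in Aβ0/0, as given above. Of 13 other lysosomal proteases, all tested in WT, 2 were higher in mTEC, *Napsa* (an aspartic protease, 4.66 ± 0.84) and *Prcp* (a carboxypeptidase, 1.22 ± 0.28), and 2 were lower, *Cpq* (-0.84 ± 0.25) and *Tpp1* (-0.73 ± 0.19). In Aβ0/0 none of 11 tested passed, with *Napsa* (5.84 ± 1.56, adjusted p = 0.0777) and *Ctsf* (-0.82 ± 0.26, adjusted p = 0.13) having the smallest p. Between genotypes in mTEC, 1 of 12 passed, *Ctsk*, the collagen-degrading cathepsin K, with 111, 263 and 269 estimated counts in WT and 0, 1 and 0 in Aβ0/0 (adjusted p = 0.0353), where 5.67% of all genes were called. This call, like those of *Cst7* and *H2-Ab1* between genotypes in mTEC given further on, was lost without any 1 of the WT mTEC libraries and with a block on the replicate number, since 0 genes of the whole table were then called. In cTEC 0 of 11 passed, with *Ctse* (3.20 ± 0.77, adjusted p = 0.701) and *Ctsf* (-0.36 ± 0.26, adjusted p = 1) first by p.

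Cystatins and stefins inhibit cysteine cathepsins. Of 9 such inhibitors tested in WT, 3 were higher in mTEC, against 18.0% of all genes tested, and 1 was lower, against 8.81%. *Stfa1* and *Stfa2* had 0 counts in every WT cTEC library and were at least 25.7-fold and 14.8-fold higher in WT mTEC, set against 3 counts per library. *Cst6* (cystatin E/M) was higher by 3.00 ± 0.37, and *Cstb* (stefin B) was lower (-1.22 ± 0.37). *Stfa1* and *Stfa2* are known as granulocyte genes. The granulocyte marker *S100a8* was also higher in WT mTEC (967 to 1406 TPM) than in WT cTEC (0 to 137 TPM), while *Elane* was not. *Elane* was at 0.177 to 0.411 TPM in WT mTEC and 0 to 55.2 TPM in WT cTEC. Nor did *S100a8* follow *Stfa1* and *Stfa2* in every library. Both had 0 counts in WT cTEC replicate 1, which held the 137 TPM. Both had 0 counts in Aβ0/0 mTEC replicates 2 and 3, with *S100a8* at 231 and 144 TPM. The part of granulocytes in the values of *Stfa1* and *Stfa2* was not tested. In Aβ0/0 none of 4 tested passed, with *Cst6* at 3.48 ± 0.88 (adjusted p = 0.0632) and *Cstb* at -1.56 ± 0.54 (adjusted p = 0.172). In mTEC *Cst7* (cystatin F, an inhibitor known from immune cells) was the 1 of 9 that passed between genotypes, with 34, 146 and 49 estimated counts in WT and 0 in all Aβ0/0 libraries, at least 23.1-fold higher, a call lost in the ways given for *Ctsk*. In cTEC 0 of 5 passed, and *Ctla2b* (3.10 ± 1.19) and *Ctla2a* (2.69 ± 1.07) had the smallest p, both with an adjusted p of 1.

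Of 20 genes of lysosomal membrane proteins and other hydrolases, 4 were higher in WT mTEC, against 18.0% of all genes tested, and 7 were lower, against 8.81%. Large changes were those of *Gusb* (β-glucuronidase, 2.2 ± 0.29), *Asah1* (acid ceramidase, -1.58 ± 0.29) and *Lamp2* (-1.54 ± 0.29). In Aβ0/0, *Gusb* (1.86 ± 0.24) was higher and *Lipa* (lysosomal acid lipase, -2.60 ± 0.52), *Asah1* (-1.71 ± 0.25) and *Lamp2* (-1.66 ± 0.26) were lower. None of the 20 passed between genotypes, with *Scarb2* (-0.98 ± 0.29, adjusted p = 0.143) first by p in mTEC and *Lipa* (-0.75 ± 0.30) and *Glb1* (-0.66 ± 0.29) first in cTEC, both with an adjusted p of 1.

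Of 20 genes of sorting, acidification and lysosomal gene control, the proton pump subunits *Atp6v0a1* (1.14 ± 0.33) and *Atp6v1c1* (1.13 ± 0.30) were higher in WT mTEC and none was lower. In Aβ0/0 none passed, with *Atp6v1c1* (0.76 ± 0.26, adjusted p = 0.16) and *Atp6v1a* (-0.63 ± 0.26, adjusted p = 0.256) first by p. None passed between genotypes, with *Atp6v1b2* (0.61 ± 0.17, adjusted p = 0.121) and *Atp6v0c* (0.64 ± 0.19, adjusted p = 0.128) first in mTEC, and *Atp6v0c* (0.52 ± 0.29) and *Mitf* (-1.43 ± 0.94) in cTEC, both with an adjusted p of 1.

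Of 10 genes of class II molecules and their loading, *H2-Oa* (2.08 ± 0.21) and *H2-Ob* (1.93 ± 0.31), the chains of the inhibitor of the peptide exchanger H2-DM, were higher in WT mTEC. *H2-DMa*, a chain of that exchanger, was lower (-1.65 ± 0.32). In Aβ0/0 none passed, with *H2-DMa* at -1.39 ± 0.38 (adjusted p = 0.0861) and *H2-DMb1* at -0.86 ± 0.28 (adjusted p = 0.141). Between genotypes *H2-Ab1* was the 1 of 10 that passed in mTEC (1.81 ± 0.27, adjusted p = 0.0353), likewise lost without any 1 WT mTEC library or with the block, and in cTEC it was at 1.48 ± 0.34 (adjusted p = 0.701), beside *H2-Ob* at 1.06 ± 0.70 (adjusted p = 1). The substrate of the cathepsins, *Cd74*, was at 11260 to 16349 TPM in WT cTEC, 14406 to 16678 TPM in Aβ0/0 cTEC, 18715 to 20693 TPM in WT mTEC and 9539 to 15035 TPM in Aβ0/0 mTEC. None of the 72 genes of these 5 lists passed for the interaction of genotype and subset in edgeR. The smallest p belonged to *Ctsk* and *Ctsf* among the proteases (adjusted p = 0.39 and 0.874), *Cst7* and *Ctla2b* among the inhibitors (0.584 and 0.651), *Lipa* and *Glb1* among the hydrolases (0.528 and 0.543), *Atp6v1b2* and *Atp6v0a1* in the sorting list (0.666 and 0.732), and *H2-Oa* and *H2-Aa* in the class II list (0.679 and 0.85).

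The genes whose log2 CPM followed a member most closely over the 12 libraries, among 11019 with a mean of at least 10 CPM, are given as a description, since most of the correlation reflects the subsets. For *Prss16* they were *Pltp* (Pearson r = 0.989), *Psmb11* (r = 0.989), the catalytic subunit of the thymoproteasome of cTEC, and *Ackr4* (r = 0.987). For *Ctsl* they were *Rsu1* (r = 0.98), *Capzb* (r = 0.978) and *Fez2* (r = 0.975). For *Ctss* they were *Ifitm1* (r = 0.984), *C1qtnf6* (r = 0.983) and *Chrna1* (r = 0.98), and for *Ifi30* *Irf5* (r = 0.962), *Pdyn* (r = 0.96) and *Cga* (r = 0.958). *Irf5*, an interferon regulatory factor, was at 42.9 to 56.3 TPM in WT mTEC, 6.49 to 18.6 TPM in Aβ0/0 mTEC and 1.75 to 7.03 TPM in cTEC.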

How the data were processed

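RNA was sequenced from 12 libraries of sorted cTEC and mTEC, made with a SMART-Seq v4 kit. Per the labels, mm10, Trim Galore, bcl2fastq 2.20.0, kallisto 0.43 and DESeq2 were used. The deposited estimated counts and TPM were made by the authors with kallisto for 109282 transcripts, and the deposited log2 values are rlog values of the authors from DESeq2. Each transcript was matched to GENCODE M21 (GRCm38), 107987 by identifier and 729 by symbol, and the remaining 566 (0.154% to 0.192% of counts) were left out. *Ifi30* rested on 1 transcript matched by symbol, and the annotation of this build classes the gene as a processed transcript. Counts were summed per gene and rounded, and TPM were summed.

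Groups were compared in edgeR 4.0.16 by its quasi-likelihood test (robust, TMM, filterByExpr; R 4.3.3) within the libraries compared, with Benjamini-Hochberg adjustment over all genes tested. Alternatives were RLE scaling, other filters, DESeq2 1.42.0, limma 3.58.1 on rlog values, a fit on all 12 libraries, a replicate block and leaving out each library. Marker sums are CPM by the plain total. Sequence copies were searched with BLAST 2.17.0. All 10 members were named in each comparison. Of every other list up to 4 called genes with the largest change were named, or else the 2 with the smallest p, except for an item that is not reported here.

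The cTEC and mTEC libraries that share genotype and number come from one sorting, as read from the study's table of cell yields. Their deviations from the group means correlated at 0.196, 0.0372 and 0.0652 in WT and at 0.23, 0.0845 and 0.0619 in Aβ0/0. The members and lists were chosen with earlier results of these data known. Whether pools of one group are independent litters is not given in the sources used here, and p values measure the spread between these pools.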

Additional observations from a re-analysis of the deposited data

How the results depend on the processing

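In mTEC against cTEC, 7 members were called in WT under RLE scaling, both other filters and the replicate block, 8 with DESeq2 and with edgeR on all 12 libraries (*Ctsd* added), 6 with limma on rlog values (*Ctsc* lost), and 6 to 9 when a library was left out. In Aβ0/0 the 4 calls became 5 with RLE scaling and with edgeR on all 12 libraries (*Ctsz* added), 6 with DESeq2 (*Ctsz* and *Ctsc* added), 1 with limma on rlog values (*Prss16*), and 3 to 4 when a library was left out. The members called between genotypes and for the interaction stayed at 0 in every alternative run. The replicate block changed no call of a member, and the log2 difference of *Ctsl* to *Ctss*, -5.86 with and without pools by construction, had a range of -6.07 to -5.59 when a library was left out and was -5.81 by CPM and -5.83 by protein-coding transcripts. The log2 difference of the summed TPM between genotypes ranged from -0.45 to -0.11 when a library was left out.

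The study's table of cell yields lists WT and Aβ0/0 under the same replicate numbers, but whether both genotypes were sorted together is not given in the sources used here. The correlations of same-numbered libraries were -0.0209 to 0.236 in cTEC and 0.0491 to 0.206 in mTEC, and not every library correlated best with its own number. The block on that number took the genes called over the whole table from 1057 to 0 in mTEC and from 3 to 0 in cTEC, so that the calls of *Ctsk*, *Cst7* and *H2-Ab1* in mTEC were lost.

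The counts over all genes depended on the setting, and the cause was not tested. In mTEC between genotypes 1057 genes became 27 without a filter, 11 with a mean of at least 10 counts, 2470 with DESeq2, 20 on all 12 libraries and 0 to 2381 when a library was left out. In cTEC 3 became 124 with DESeq2, 16 on all 12 libraries, 7 without a filter, 6 with limma and 1 to 3 when a library was left out. For the interaction 2 became 395 with DESeq2, 831 with limma, 0 with the block and 1 to 18 when a library was left out. Between subsets 5007 in WT became 6853 with DESeq2, 4523 with limma, 2767 on all 12 libraries and 3413 to 7575 when a library was left out. The 878 in Aβ0/0 became 2777 with DESeq2, 1816 on all 12 libraries, 374 with limma and 338 to 457 when a library was left out.

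Of 700 values of single members under an alternative, 47 changed sign, 14 lost a call and 9 gained one, and none that changed sign was called. *Ctsb* between subsets in WT was at 0.068 with limma. In mTEC between genotypes *Ctsb* was at 0.047 with limma, and leaving out a library gave -0.16 to 0.030 for *Ctsb*, -0.082 to 0.17 for *Ctsc* and -0.73 to 0.064 for *Prss16*. In cTEC *Ctsd* was at -0.023 with RLE, -0.031 without a filter, -0.031 with DESeq2, -0.038 with limma and -0.011 on all 12 libraries, *Ctss* at -0.00039 without a filter, and *Ifi30* at 0.00064 with limma and 0.043 with the block. Leaving out a library there gave -0.23 to 0.033 for *Ctsb*, -0.76 to 0.39 for *Ctsc*, -0.155 to 0.092 for *Ctsd*, -0.24 to 0.40 for *Ctss* and -0.26 to 0.28 for *Ifi30*. For the interaction *Ctsb* was at -0.010 without a filter and -0.00013 with the mean filter and *Ctsh* at 0.013 with limma, and leaving out a library gave -0.081 to 0.19 for *Ctsb*, -0.31 to 0.85 for *Ctsc*, -0.59 to 0.19 for *Ctsh*, -0.67 to 0.014 for *Ctsl*, -0.28 to 0.55 for *Lgmn* and -0.17 to 0.74 for *Prss16*.

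The counts are sums of estimated counts, and the cDNA was amplified by PCR from few cells. With 3 pools per group, an exact test of 3 against 3 cannot go below 0.1. TPM depends on how kallisto shared reads between transcripts of a gene, which differed in WT cTEC replicate 3.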
